A study of Mus musculus with 5 samples.

Results

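The G1 cyclins, their kinases and the inhibitors of those kinases were examined as 10 mouse genes, taken by name from the 34240 features of the deposited expression table: Ccnd1, Ccnd2, Ccnd3, Ccne1, Cdk4, Cdk6, Cdkn1a, Cdkn1b, Cdkn2c and Cdkn2d. Of these, 9 reached 1 RPKM (reads per kilobase of exon, normalised to library size) in at least 2 libraries and were tested, and Ccnd1 did not. The AML group consisted of 2 libraries of acute myeloid leukaemia cells sorted for Mac, Gr1 and B220, with bone marrow and spleen as the labelled tissue, from mice with a leukaemia driven by the CNTRL-FGFR1 fusion, which joins a centrosomal protein to a receptor tyrosine kinase. The normal group consisted of 3 libraries of myeloid cells sorted for Gr1 and Mac1 from bone marrow. Both groups were BALB/c mice labelled as 10-12 months old, and no other allele or treatment is given. Spleen and B220 belong to the AML group only, so tissue and sort cannot be told apart from leukaemia. Whether replicate libraries came from different animals, and how the fusion was delivered, is not stated in the labels. The p-values therefore reflect the spread among these samples alone, which may be technical.

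A cell leaves G1 when a D-type cyclin binds CDK4 or CDK6 and the pair phosphorylates the retinoblastoma protein, which releases E2F transcription factors. E2F then drives the genes of DNA replication and of cyclin E, whose partner CDK2 completes the step. INK4 proteins, among them those of Cdkn2c and Cdkn2d, bind CDK4 and CDK6 and block the assembly with cyclin D, while the CIP/KIP proteins of Cdkn1a (p21) and Cdkn1b (p27) inhibit cyclin-CDK2 complexes. Granulocytes divide as promyelocytes and myelocytes and stop dividing as they mature, and CDK inhibitors accumulate in that course.

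The libraries can be described briefly. RPKM totals ran from 524000 to 638584 in AML libraries and from 472234 to 615921 in normal libraries. From the spacing of low values, sequencing depth was estimated at 35750000 reads for AML library 1 (95% of 20 values were whole multiples of 1 read within 0.0051 RPKM, against 38.9% by chance) and 33000000 for normal library 1 (100% of 68 values, against 34.2% by chance). Each depth was the best match among many depths tried, while the chance share is for that depth alone. The share by chance is therefore understated for a best match. The depth of the other libraries was not recovered. Normal libraries 1 and 2 correlated at 0.988 and normal library 3 with them at 0.924 and 0.944, while the AML libraries correlated at 0.964 (Pearson, log2 of RPKM + 1, across tested genes). Normal library 3 thus stood apart within its group, and results that rest on it are given with and without it. Ly6g, Ltf, Camp and S100a8, which mark granulocytes, were abundant in both groups. The summed level of 10 neutrophil markers was 171610 and 238600 RPKM in AML libraries, against 190710 to 298820 RPKM in normal libraries, and 6 of the 10 were lower and none higher in AML cells. The sum of 8 primary granule and progenitor markers was 10545 and 11519 RPKM in AML libraries, against 306 to 452 RPKM in normal libraries, with 7 higher and 1, Cd34, lower and listed at 0 in both AML libraries. The sum of 10 monocyte and macrophage markers was 37.6 and 40.6 RPKM in AML libraries, against 539 to 893 RPKM in normal libraries, with 9 lower. The 8 erythroid markers summed to 117 and 127.5 RPKM in AML libraries, and to 1535 and 976 RPKM in normal libraries 1 and 2 but 102 RPKM in normal library 3. None of the 7 erythroid markers tested passed. Of 8 T cell markers, Cd3e and Cd3g were higher and Cd3d lower, with Trac at 0 in every library and Lck, Cd2, Cd4 and Cd8a under 1 RPKM. The 8 B cell markers summed to 10.5 and 12.9 RPKM in AML libraries, against 11.5 to 18.2 RPKM in normal libraries, and none of 3 tested passed. Of the markers called, Cd34, Irf8, Klf4 and Cx3cr1 passed the filter of 1 RPKM only through the normal libraries, where they are high. Cd3e passed it only through the AML libraries, where it is high. The part of these cell types in the results below was not tested, and in bulk RNA fewer cells of a type and less RNA per cell cannot be told apart.

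Both cyclin D kinases and cyclin E1 were higher in the AML cells, the inhibitor Cdkn1b was lower, and the D-type cyclins did not pass the test. Cdk4 was 4.01-fold higher, Cdk6 4.37-fold and Ccne1 2.71-fold, and Cdkn1b was 2.02-fold lower. Of the 9 genes tested, 3 rose, 1 fell and 5 did not pass (limma on log2 of RPKM + 1, Benjamini-Hochberg adjusted p under 0.05 over 10166 genes). Over all tested genes 19.3% were called higher, 11.8% lower and 31% either way, beside 44.4% of the 9 genes. The median log2 fold change of the 9 genes was -0.51, against 0.12 over all tested genes. AML and normal values did not overlap for 7 of the 10 genes, 3 with AML above and 4 with AML below, while 57% of tested genes did not overlap, 34.8% with AML above and 22.1% with AML below. All 4 genes whose AML values lay below were inhibitors. No gene was called lower without normal library 2, AML library 1 or AML library 2, and 2 were called lower without normal library 3 (Cdkn1b and Cdkn2d), while Cdk4 and Ccne1 were called higher in each of those fits.

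**Figure D1:**
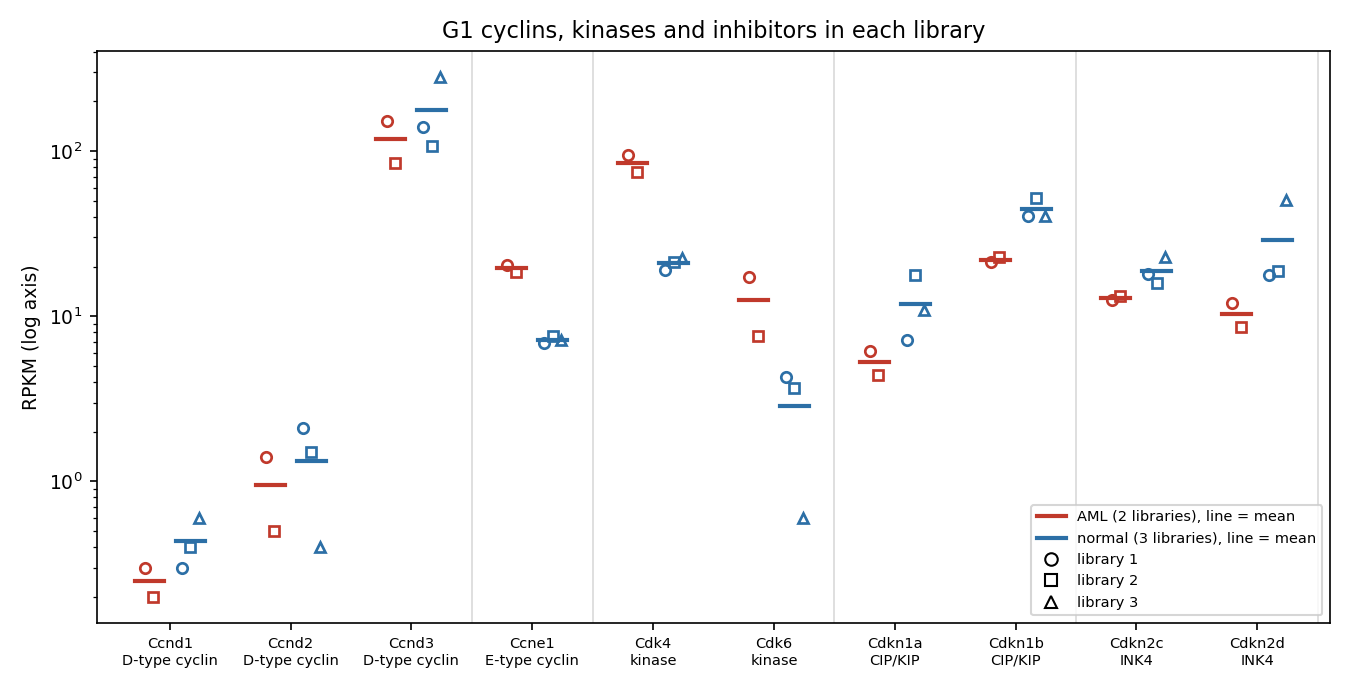
RPKM (log axis) of each of the 10 genes in the 2 AML libraries (red) and the 3 normal libraries (blue), with a line at each group mean and a marker shape per library number. Cdk4, Cdk6 and Ccne1 lie higher in both AML libraries, all 4 inhibitors lie lower, and the D-type cyclins overlap.

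The start regions of the 3 genes that rose are printed because they show how unlike these promoters are in a motif that MYC binds. They are 300 bases each, from 250 before to 50 after the RefSeq start site (GRCm38.p6, a later build than the mm9 of the expression table), and capitals mark CACGTG, the canonical E-box. Cdk4 lies at chr10:127063285-127063584 (+ strand), Cdk6 at chr5:3343643-3343942 (+ strand) and Ccne1 at chr7:38107441-38107740 (- strand).
Cdk4: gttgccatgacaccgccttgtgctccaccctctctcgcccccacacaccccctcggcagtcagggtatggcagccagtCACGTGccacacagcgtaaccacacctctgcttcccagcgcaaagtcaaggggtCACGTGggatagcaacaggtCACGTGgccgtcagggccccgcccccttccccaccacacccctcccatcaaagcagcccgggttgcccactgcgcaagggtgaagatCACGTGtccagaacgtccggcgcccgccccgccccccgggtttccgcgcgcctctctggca
Cdk6: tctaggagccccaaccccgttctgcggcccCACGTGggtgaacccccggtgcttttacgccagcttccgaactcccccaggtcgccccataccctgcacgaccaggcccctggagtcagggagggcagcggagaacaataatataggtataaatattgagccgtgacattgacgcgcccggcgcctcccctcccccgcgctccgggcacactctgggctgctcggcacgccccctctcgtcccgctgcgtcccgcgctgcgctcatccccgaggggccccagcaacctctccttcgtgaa
Ccne1: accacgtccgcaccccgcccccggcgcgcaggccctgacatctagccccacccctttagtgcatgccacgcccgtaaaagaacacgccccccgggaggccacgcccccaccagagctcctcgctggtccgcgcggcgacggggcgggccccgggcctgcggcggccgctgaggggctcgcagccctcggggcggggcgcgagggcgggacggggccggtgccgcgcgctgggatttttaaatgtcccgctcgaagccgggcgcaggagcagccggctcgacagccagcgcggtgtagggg

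The Cdk4 sequence holds 4 E-boxes, starting 172, 118, 98 and 11 bases before the start site, the Cdk6 sequence 1, starting 220 bases before it, and the Ccne1 sequence none. A palindrome, CACGTG reads alike on both strands. At least 1 copy is in 7.15% of 32851 RefSeq promoters of this length and in 10.2% of 9244 promoters of tested genes. In the 32851 promoters, 4 or more copies are in 8, or 0.0244%. The cut of 4 equals the count in Cdk4, so this share is a description and no test of that gene. It was not computed for promoters of tested genes. Of the 10 genes, 8 had a promoter in the RefSeq table (11 start regions) and Ccnd1 and Ccnd2 had none. Besides Cdk4 and Cdk6, an E-box was found in 1 of the start regions of Cdkn2c, 34 bases after the start site. The E2F-type letters TTTCCCGC and TTTGGCGC, searched on both strands, were in none of the 11 regions, in 1.56% of all promoters and in 3.12% of promoters of tested genes. Other forms of the E2F motif were not searched. A match is a run of letters and not a measured binding site. Myc itself stood at 36.8 and 29.28 RPKM in AML libraries, against 2.48, 2.98 and 3.56 RPKM in normal libraries. Its part in the levels of Cdk4, Cdk6 and Ccne1 was not tested.

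Ccnd3 was by far the most abundant of the D-type cyclins, which carry mitogen signals to CDK4 and CDK6. Ccnd3 (ENSMUSG00000034165, chromosome 17, 47642000 to 47736632, mm9) was at 151.6 and 84.7 RPKM in AML libraries, against 139.1, 107.9 and 282.2 RPKM in normal libraries 1 to 3. The groups overlapped, with normal library 3 the highest and AML library 2 the lowest. The log2 fold change was -0.51 (SE 0.46), short of the threshold (limma, Benjamini-Hochberg adjusted p = 0.422). Without normal library 3 it was -0.11 (adjusted p = 0.793) and without AML library 2 it was -0.09 (adjusted p = 0.93). Set against normal library 3 alone it was -1.31 and passed (limma, adjusted p = 0.0391, with that library assumed to vary like the AML libraries).

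Ccnd2 and Ccnd1 lay near or under the filter of 1 RPKM. Ccnd2 (ENSMUSG00000000184, chromosome 6, 127075797 to 127101066) stood at 1.4 and 0.5 RPKM in AML libraries, against 2.1, 1.5 and 0.4 RPKM in normal libraries, with overlapping groups and a log2 fold change of -0.22 (SE 0.37; limma, Benjamini-Hochberg adjusted p = 0.673). Its sign turned without normal library 1 (0.02) or AML library 2 (0.12). Ccnd1 (ENSMUSG00000070348, chromosome 7, 152115836 to 152125774) was at 0.3 and 0.2 RPKM in AML libraries, against 0.3, 0.4 and 0.6 RPKM in normal libraries. At the recovered depths and an annotated exon length of 3835 bp, 0.3 RPKM corresponds to about 41 reads in AML library 1 and 38 in normal library 1, and 21.3% of those exon bases also belong to exons of Oraov1 on the other strand. With no filter on low values Ccnd1 had a log2 fold change of -0.19 (SE 0.13; limma, Benjamini-Hochberg adjusted p = 0.361).

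Nearly all of the summed D-type cyclin RPKM came from Ccnd3 in every library, while the small share of Ccnd2 varied. Ccnd2 made up 0.91% and 0.59% in AML libraries, against 1.48%, 1.37% and 0.14% in normal libraries 1 to 3. Ccnd3 made up 98.9% and 99.2% of the summed RPKM of the 3 D-type cyclins in AML libraries, against 98.3%, 98.3% and 99.6% in normal libraries. The sum itself was 153.3 and 85.4 RPKM in AML libraries, against 141.5, 109.8 and 283.2 RPKM in normal libraries, again overlapping.

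Cyclin E1, the partner of CDK2 at the end of G1, was higher in both AML libraries. Ccne1 (ENSMUSG00000002068, chromosome 7, 38883003 to 38892553) was at 20.54 and 18.58 RPKM in AML libraries, against 6.91, 7.6 and 7.15 RPKM in normal libraries. Values within each group lay close together and the groups did not overlap. The means were 19.6 ± 1.39 RPKM in AML cells (SD, n = 2) and 7.22 ± 0.35 RPKM in normal cells (SD, n = 3), with a log2 fold change of 1.32 (SE 0.21; limma, Benjamini-Hochberg adjusted p = 0.00479). The call held under all 15 alternatives, with log2 fold changes between 1.14 and 1.42. Ccne2, the second E-type cyclin, was at 3.6 and 3.1 RPKM in AML libraries, against 5.1, 6.2 and 1.3 RPKM in normal libraries, and did not pass.

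Cdk4 had the largest log2 fold change of the 9 tested genes, ahead of Cdk6 by less than its SE. The gene (ENSMUSG00000006728, chromosome 10, 126500590 to 126504976) encodes a cyclin D kinase found in most tissues and was at 94.27 and 74.26 RPKM in AML libraries, against 19.17, 21.25 and 22.59 RPKM in normal libraries. The lower AML library was 3.29 times the highest normal library. The means were 84.3 ± 14.1 RPKM in AML cells (SD, n = 2) and 21 ± 1.72 RPKM in normal cells (SD, n = 3), and the log2 fold change was 1.95 (SE 0.23; limma, Benjamini-Hochberg adjusted p = 0.00174). By size of change Cdk4 ranked 600 of 10166 tested genes, and by mean level 678 in AML cells, against 2759 in normal cells. The call held under all 15 alternatives (1.73 to 2.12). Of its exon bases 18.6% are shared with exons of Tspan31 on the opposite strand, which was at 13.7 and 14.6 RPKM in AML libraries, against 11.1, 11.6 and 21.7 RPKM in normal libraries.

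Cdk6, the second cyclin D kinase and prominent in blood progenitors, was higher too but varied more between libraries. Cdk6 (ENSMUSG00000040274, chromosome 5, 3343893 to 3523218) was at 17.4 and 7.57 RPKM in AML libraries, against 4.28, 3.69 and 0.6 RPKM in normal libraries. The groups did not overlap, yet AML library 1 was 2.30 times AML library 2, and normal library 3 was at 0.151 times the mean of the other normal libraries. The log2 fold change was 1.88 (SE 0.57; limma, Benjamini-Hochberg adjusted p = 0.0462), close to the threshold. The call was lost without normal library 2 (2.11, adjusted p = 0.069), AML library 1 (1.33, adjusted p = 0.224) or AML library 2 (2.43, adjusted p = 0.0973), and it also missed the threshold with 5 of the 9 other settings (adjusted p from 0.0519 to 0.121, limma). Without normal library 3 the change was smaller, 1.34, and passed (limma adjusted p = 0.0162). Against normal library 3 alone the log2 fold change was 2.97. The summed erythroid markers were at 117 and 127.5 RPKM in AML libraries, against 1535, 976 and 102 RPKM in normal libraries 1 to 3, and their part in the levels of Cdk6 was not tested.

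The summed RNA of both kinases was higher in AML libraries, while its division between them did not separate the groups. Cdk4 and Cdk6 together were at 111.67 and 81.83 RPKM in AML libraries, against 23.45, 24.94 and 23.19 RPKM in normal libraries. Cdk6 made up 15.6% and 9.25% of that sum in AML libraries, against 18.3%, 14.8% and 2.59% in normal libraries. The shares of the groups overlapped.

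Among Cdkn1a, Cdkn1b, Cdkn2c and Cdkn2d, the most abundant in AML cells and the only one to pass was Cdkn1b. Cdkn1b (ENSMUSG00000003031, chromosome 6, 134870419 to 134875531), which encodes p27, was at 21.2 and 22.7 RPKM in AML libraries, against 40.6, 52.1 and 40.5 RPKM in normal libraries. Both AML values were lower than every normal value. The means were 21.95 ± 1.06 RPKM in AML cells (SD, n = 2) and 44.4 ± 6.67 RPKM in normal cells (SD, n = 3), with a log2 fold change of -0.98 (SE 0.23; limma, Benjamini-Hochberg adjusted p = 0.0202). The call was lost without normal library 1 (-1.03, adjusted p = 0.0517), normal library 2 (-0.86, adjusted p = 0.0995), AML library 1 (-0.93, adjusted p = 0.0962) or AML library 2 (-1.02, adjusted p = 0.105), and held without normal library 3. Set against normal library 3 alone the call was lost as well, with a log2 fold change of -0.86. Much of p27 control is known to act on the protein, which RNA values do not show.

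Cdkn1a, which encodes p21 and is a target of p53, was at 6.2 and 4.4 RPKM in AML libraries, against 7.2, 17.7 and 10.9 RPKM in normal libraries. The AML values lay below, but the normal libraries spread widely, and normal library 1 came close to AML library 1. The log2 fold change of Cdkn1a (ENSMUSG00000023067, chromosome 17, 29227924 to 29237667) was -0.97 (SE 0.37) and missed the threshold (limma, Benjamini-Hochberg adjusted p = 0.088). Without normal library 1 it was -1.26 and passed (adjusted p = 0.0449). Trp53, which encodes p53, was itself higher, at 37.12 and 35.57 RPKM in AML libraries, against 18.11, 15.7 and 13.27 RPKM in normal libraries.

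The INK4 genes Cdkn2c and Cdkn2d missed the threshold, and Cdkn2d was the more uneven within the normal group. Cdkn2d (ENSMUSG00000066860, chromosome 9, 21092907 to 21095653), which encodes p19-INK4d, was at 12.1 and 8.6 RPKM in AML libraries, against 17.8, 18.8 and 50.6 RPKM in normal libraries. Normal library 3 was at 2.77 times the mean of normal libraries 1 and 2, which were close to each other. The log2 fold change was -1.26 (SE 0.46; limma, Benjamini-Hochberg adjusted p = 0.0803). Without normal library 3 the difference was smaller, -0.78, and passed (adjusted p = 0.0323), and against normal library 3 alone it was -2.20 (adjusted p = 2.56e-05). Cdkn2c (ENSMUSG00000028551, chromosome 4, 109333481 to 109339794), which encodes p18-INK4c, was at 12.5 and 13.2 RPKM in AML libraries, against 18, 15.9 and 22.8 RPKM in normal libraries. The AML values were below all normal ones, by a log2 fold change of -0.51 (SE 0.24; limma, Benjamini-Hochberg adjusted p = 0.144).

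Summed over the inhibitors, AML libraries had 52 and 48.9 RPKM, against 83.6, 104.5 and 124.8 RPKM in normal libraries. Cdkn1b made up 40.8% and 46.4% of this sum in AML libraries, against 48.6%, 49.9% and 32.5% in normal libraries. The share of Cdkn2c was 24% and 27% in AML libraries, against 21.5%, 15.2% and 18.3% in normal libraries, so the shares of Cdkn2c alone did not overlap between the groups. Those of Cdkn1a, Cdkn1b and Cdkn2d did. The shares were not tested, and the levels of 57% of tested genes did not overlap either. The level of Cdkn2c was lower in AML libraries, at 12.5 and 13.2 RPKM, against 18, 15.9 and 22.8 RPKM in normal libraries.

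Kinase and inhibitor RNA stood in a different proportion in the AML libraries. The ratio of Cdk4 plus Cdk6 to the INK4 genes Cdkn2c plus Cdkn2d was 4.54 and 3.75 in AML libraries, against 0.655, 0.719 and 0.316 in normal libraries. Against all 4 inhibitors the ratio was 2.15 and 1.67 in AML libraries and 0.281, 0.239 and 0.186 in normal libraries. The D-type cyclins exceeded both kinases together in every library, by 1.37 and 1.04 times in AML libraries and by 6.03, 4.40 and 12.2 times in normal libraries. None of these ratios overlapped between the groups. For both kinase to inhibitor ratios this follows from the single genes and is no further result. Both kinases lay above and all 4 inhibitors below in the AML libraries. The D-type cyclin sum overlapped between the groups, while the kinase sum did not. As ratios within a library, all of these ratios do not depend on how libraries were scaled. They are ratios of RNA per length and not of protein, and they are given without a test.

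**Figure D2:**
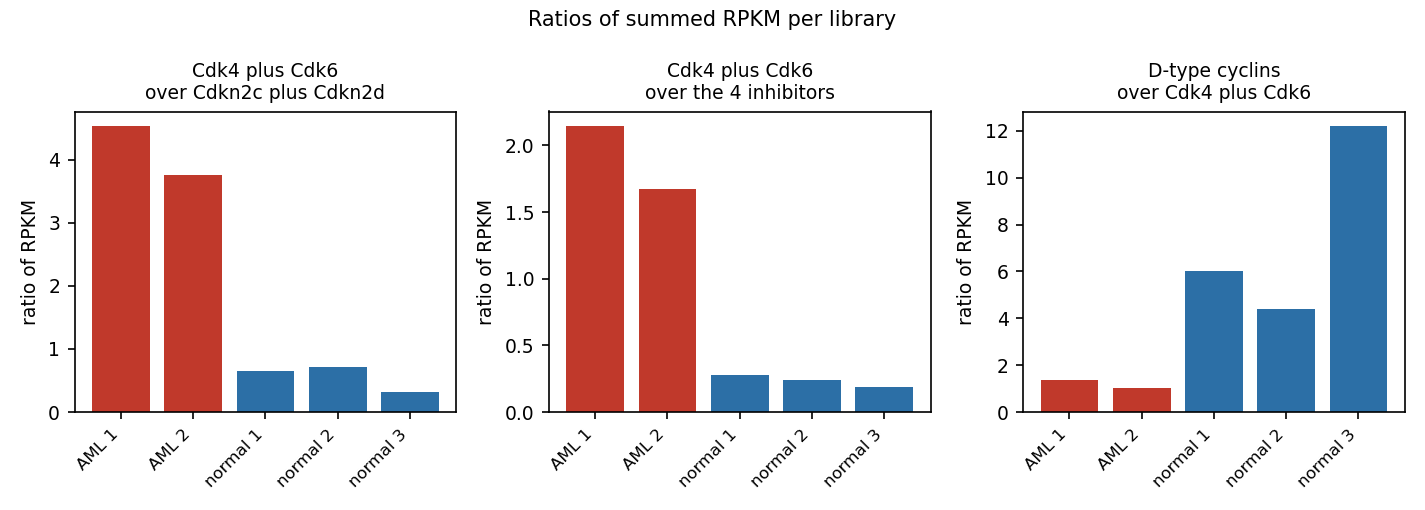
Ratios of summed RPKM in each of the 2 AML libraries (red) and the 3 normal libraries (blue); each bar is 1 library. The kinase to inhibitor ratios are higher in both AML libraries (4.54 and 3.75 against at most 0.719 for the INK4 genes), and the D-type cyclin to kinase ratio is lower.

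**Figure D3:**
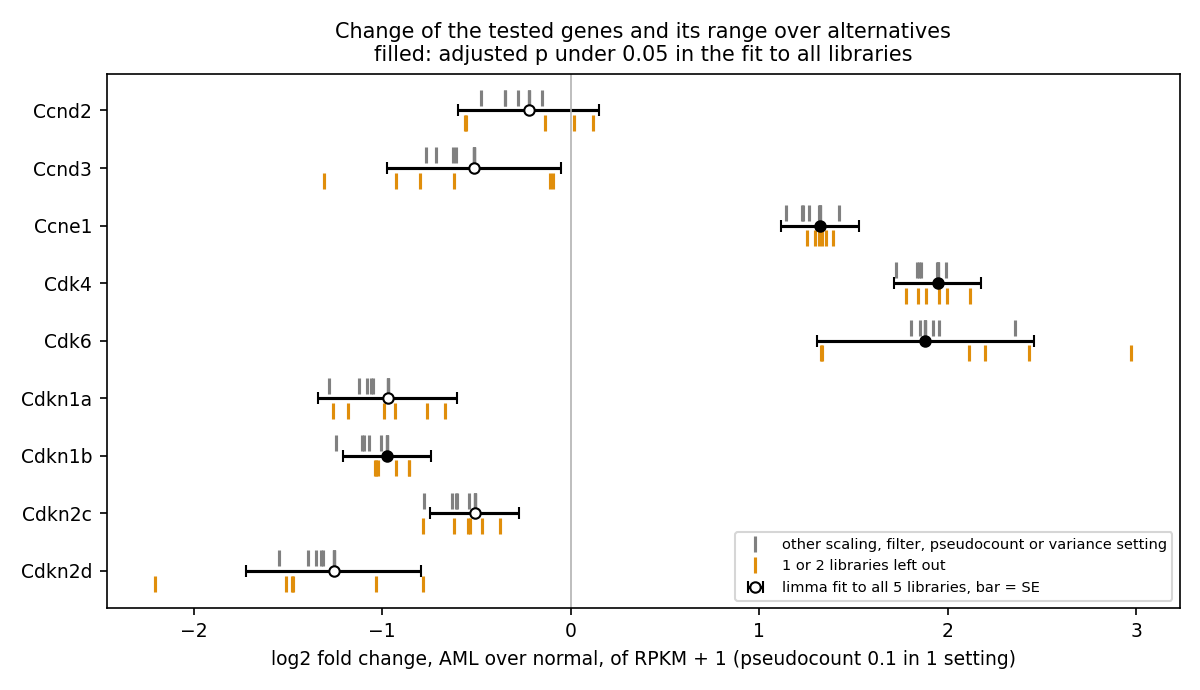
Log2 fold change of AML over normal for the 9 tested genes. Points are the limma fit to all 5 libraries with its SE (filled where the adjusted p is under 0.05), and ticks show the alternative settings above each point and the fits without 1 or 2 libraries below it. Cdk4 and Ccne1 stay in a narrow range (1.73 to 2.12 and 1.14 to 1.42), and Cdk6 and Cdkn2d spread most. Ccnd2 is the one gene whose ticks fall on both sides of 0.

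The remaining genes of the G1 to S step were called higher about as often as all tested genes. Of 28 listed, 25 were tested, 5 were higher in AML cells (Cdkn2a, E2f1, Cdc25a, Ccnh and Skp2), none was lower and 20 did not pass, beside 19.3% higher, 11.8% lower and 31% called either way over all tested genes. The median log2 fold change was 0.42, against 0.12 over all tested genes. For this list and both that follow, members were chosen with earlier results of these data known. E2f1, the first of the activating E2F factors, was at 21.33 and 16.3 RPKM in AML libraries, against 5.75, 6.66 and 4.94 RPKM in normal libraries, a log2 fold change of 1.54 (SE 0.24; limma, Benjamini-Hochberg adjusted p = 0.00463). Cdc25a, the phosphatase that activates CDK2, had a log2 fold change of 1.09 (SE 0.25, limma adjusted p = 0.0171), which missed the threshold in 6 alternatives (up to 0.124), among them the fits without normal library 2 or either AML library. Skp2, a ubiquitin ligase subunit that targets p27, was just past the threshold (limma, Benjamini-Hochberg adjusted p = 0.0489), missed it in 10 alternatives (up to 0.232) and was under the filter in another. Ccnh, a subunit of the kinase that activates CDKs, missed it in 5 (up to 0.141). Both missed it in the fits that left out either AML library, normal library 1 or normal library 2. Cdk2 itself was at 132.28 and 92.48 RPKM in AML libraries, against 49.58, 56.05 and 86.24 RPKM in normal libraries, and missed the threshold (limma, Benjamini-Hochberg adjusted p = 0.093). Rb1, the retinoblastoma gene, was at 17.8 and 14.7 RPKM in AML libraries, against 35.4, 34.9 and 13.5 RPKM in normal libraries, with normal library 3 under both AML libraries. The number called higher was 7 without normal library 3, with Rb1 then called lower. It was 3 without normal library 1, 2 without normal library 2, and 1, E2f1, without either AML library, where Cdkn2a was under the filter and not tested.

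Further INK4 proteins come from the neighbouring locus of Cdkn2a and Cdkn2b. Cdkn2a was at 2.73 and 2.72 RPKM in AML libraries and was listed at 0 in all normal libraries. No fold is given against libraries listed at 0. The difference passed the test (limma, Benjamini-Hochberg adjusted p = 0.000523), and at an annotated exon length of 1170 bp 2.73 RPKM corresponds to about 114 reads in AML library 1. Cdkn2a passed the filter of 1 RPKM only through the AML libraries, where it is high. The same holds for its place in the list of genes called higher above. With no filter on low values Cdkn2a passed as well (limma, Benjamini-Hochberg adjusted p = 0.00272). Cdkn2a encodes both p16-INK4a and, in another reading frame, p19-ARF, and a value per gene does not separate them. Cdkn2b, which encodes p15-INK4b, was under the filter, at 0.94 and 1.03 RPKM in AML libraries, against 0.28, 0.21 and 0.15 RPKM in normal libraries. With no filter it passed, with a log2 fold change of 0.71 (SE 0.11; limma, Benjamini-Hochberg adjusted p = 0.0157). Both genes of this locus thus lay higher in AML cells, while the AML values of Cdkn2c and Cdkn2d lay lower.

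Most of the E2F target genes of DNA replication rose. Of 20 genes 15 were higher in AML cells, 1 was lower and 4 did not pass, beside 19.3% higher and 11.8% lower over all tested genes. The median log2 fold change was 1.31, against 0.12 over all tested genes. Cdt1, which loads the replicative helicase, was at 45.11 and 60.63 RPKM in AML libraries, against 9.52, 9.66 and 10.1 RPKM in normal libraries, a log2 fold change of 2.31 (SE 0.23; limma, Benjamini-Hochberg adjusted p = 0.000848). Gins1, a subunit of the helicase complex, had a log2 fold change of 2.02 (SE 0.43, limma adjusted p = 0.0143) and Mcm7, another helicase subunit, one of 1.90 (SE 0.31, limma adjusted p = 0.00597). The lower gene was Ccna2, cyclin A2 of S and G2 phase, at 28.5 and 11.5 RPKM in AML libraries, against 55.4, 60.5 and 33.9 RPKM in normal libraries (log2 fold change -1.37, SE 0.43; limma, Benjamini-Hochberg adjusted p = 0.0496). Ccna2 missed the threshold in 7 alternatives (up to 0.306), among them the fits that left out AML library 2, normal library 1 or normal library 2. The number called higher was 5 without AML library 1, 7 without AML library 2 and 16 without normal library 3. Leaving out AML library 2 took Gins1 over the threshold (limma adjusted p = 0.112), and leaving out AML library 1 did so for Mcm7 (limma adjusted p = 0.0506).

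Regulators known to act on G1 cyclins, kinases or inhibitors moved in both directions. Of 13 tested 5 were higher (Gfi1, Myc, Cebpa, Trp53 and Bmi1), 3 were lower (Klf4, Stat5b and Foxo1) and 5 did not pass, beside 19.3% higher and 11.8% lower over all tested genes. The median log2 fold change was 0.28, against 0.12 over all tested genes. Myc, whose product can induce Cdk4 and Ccnd2 and repress Cdkn1a, was 11-fold higher (log2 fold change 3.09, SE 0.24; limma, Benjamini-Hochberg adjusted p = 0.000394). Gfi1, a transcriptional repressor that neutrophil development requires, was at 142.82 and 200.92 RPKM in AML libraries, against 14.75, 13.56 and 17.25 RPKM in normal libraries. Cebpa, a granulocytic factor whose protein restrains E2F and the cyclin D kinases, was at 27.9 and 22.94 RPKM in AML libraries, against 8.76, 9.78 and 10.16 RPKM in normal libraries. Klf4, an activator of Cdkn1a, was at 0.7 and 0.8 RPKM in AML libraries, against 16, 13.4 and 18.7 RPKM in normal libraries. Klf4 is also among the 10 monocyte and macrophage markers described above, of which 9 were lower. The part of those cells in its level was not tested. Foxo1, of the FOXO factors that activate Cdkn1b, was at 0.2 RPKM in both AML libraries, against 1.8, 1.6 and 1 RPKM in normal libraries. Foxo1 and Klf4 passed the filter of 1 RPKM only through the normal libraries, where they are high. Stat5b, a cytokine-activated factor upstream of D-type cyclins, was at 10.2 and 8 RPKM in AML libraries, against 25, 22.3 and 17.6 RPKM in normal libraries, and Stat5a at 8.5 and 6.2 RPKM overlapped its normal values of 7.5, 8.2 and 5.9 RPKM. Without either AML library 3 regulators were called higher (Gfi1, Myc and Cebpa) and 1 lower (Klf4), and without normal library 2 the calls of Trp53, Bmi1 and Stat5b were lost too. The calls of Gfi1, Myc and Cebpa held in all 15 alternatives.

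**Figure D4:**
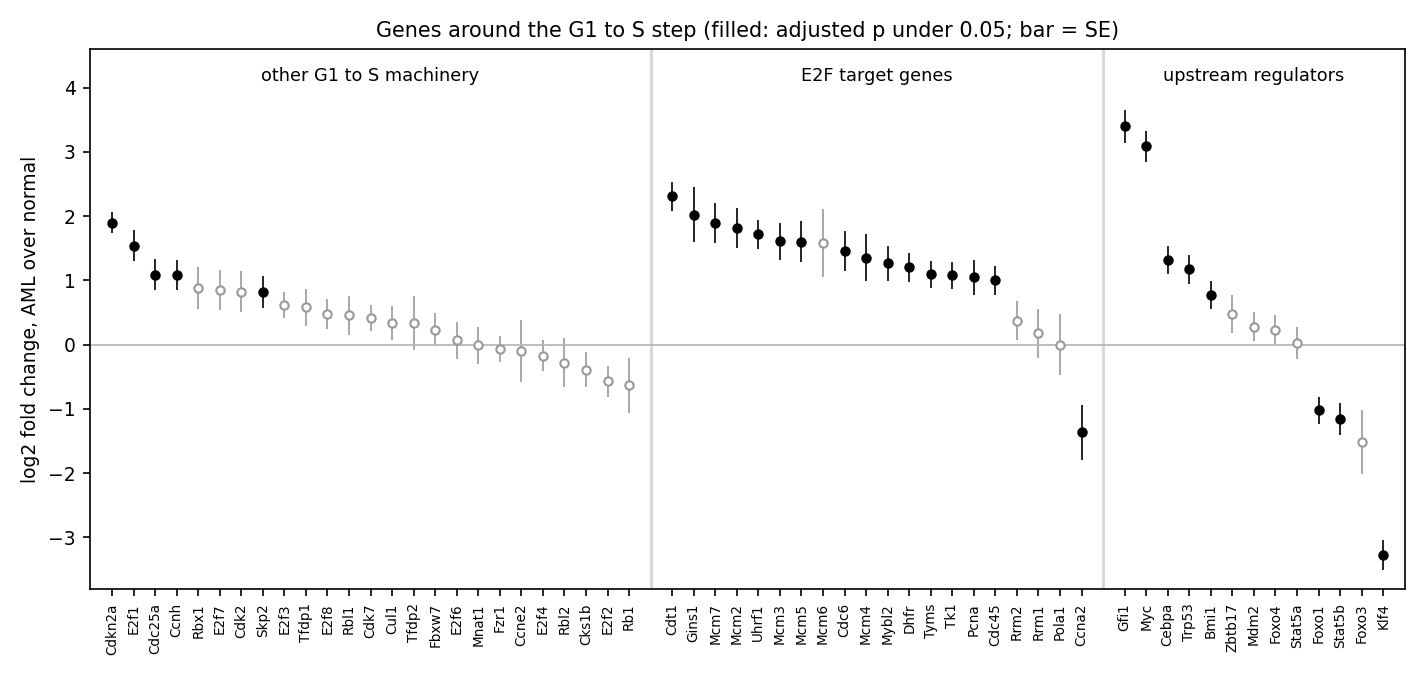
Log2 fold change of AML over normal, with its SE, for the tested genes of 3 lists (filled: limma adjusted p under 0.05). In the E2F target list 15 of 20 genes are filled above 0 and Ccna2 alone is filled below it, while 20 of 25 genes of the G1 to S machinery are open; Cdkn2a is plotted against normal libraries listed at 0, so its height is no fold change.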

How the data were processed

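Total RNA of sorted cells was sequenced after TruSeq RNA library preparation, per the labels' protocols. The deposited table holds 1 column per library; the authors' values were read as RPKM. No header or label states this unit; it was inferred from the sum of value times exon kilobases, which was 1059377 to 1124787 per library. Per the submitters' processing notes the genome build was mm9. The sources used here do not give the aligner, counter, strand use or annotation. Columns were matched by sample title, and groups come from the source labels. The 10166 genes that reached 1 RPKM in 2 or more libraries were compared as log2(RPKM + 1), which understates the change of low genes, with limma 3.58.1 in R 4.3.3 (variance trend, robust, two-sided), adjusted by Benjamini-Hochberg with a threshold of 0.05. The script was tested on simulated data. Means and folds are of RPKM. Coordinates and exon lengths are from GENCODE M1 (mm9). The members and gene lists were chosen with earlier results of these data known. Genes named from a list are the 3 called with the largest change in each direction, and others where a count was small or a role is described. Alternatives were 4 scalings, a pseudocount of 0.1, no filter, a filter at 5 RPKM, no variance trend, rounding to 1 decimal, each library left out, and normal library 3 alone.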

Additional observations from a re-analysis of the deposited data

How the results depend on the processing

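With 5 libraries, depth estimated for 2 of them and values deposited with 1 or 2 decimals, small changes and levels under 1 RPKM are poorly resolved. No paired analysis was possible because the library titles of both groups share fewer than 2 numbers and the labels pair no samples. Cdk4 and Ccne1 passed in all 15 alternatives. Cdk6 was lost in 8 and Cdkn1b in 5, and the cause was not tested. Ccnd2 reversed without normal library 1 (0.02) and without AML library 2 (0.12), within a range of -0.56 to 0.12 over the fits without 1 library. Rescaling all libraries to equal totals without S100a8 and S100a9 shifted the median of all tested genes by -0.23. It gave 1253 genes higher, 47% of those called against 62.1% with values as deposited (upper quartile scaling 53.5%), and among the 10 genes 3 lower (Cdkn1b, Cdkn2c and Cdkn2d), among the machinery genes 3 higher and 1 (E2f2) lower. Rescaling to equal totals with them gave 3 higher machinery genes, 3 higher regulators and 0 lower E2F targets; no filter and rounding also gave 0 lower E2F targets, and a filter at 5 RPKM gave 3 higher machinery genes. With normal library 3 alone for its group there were 864 higher and 471 lower genes, 2 lower members (Ccnd3 and Cdkn2d), 2 higher machinery genes, 0 lower E2F targets and 0 lower regulators. Leaving out 1 library gave 326 to 2757 genes higher and 348 to 2142 lower, 2 to 3 members higher and 0 to 2 lower, 1 to 7 machinery genes higher and 0 to 1 lower, 5 to 16 E2F targets higher and 0 to 1 lower, and 3 to 5 regulators higher and 1 to 4 lower.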
